A study of Mus musculus with 2 samples.

Results

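Calcium sensing and buffering were examined through 9 genes in dorsal root ganglion (DRG) sensory neurons of immunized mice. They are 2 calmodulin genes (Calm2 and Calm3), 3 genes of cytosolic calcium-binding proteins (Pvalb, Calb1 and Calb2) and the 4 genes of calcium/calmodulin-dependent protein kinase II (Camk2a, Camk2b, Camk2d and Camk2g). The genes were chosen by symbol, and all 9 were found, with 21 of the 35034 RefSeq transcripts and 9 of the 24411 gene symbols listed. Values are TPM, a level per unit of transcript length scaled to a sum of 1000000 transcripts per library, so that levels of different genes can be set side by side.

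The study sequenced 1 library per group, each from pooled thoracic and lumbar DRG neurons of 10 C57BL/6 mice (C57BL/6J in the methods). On days 0 and 14 both groups were injected into the peritoneum with 200 µl holding 50% alum (an adjuvant made of aluminium salts), and DRGs were taken on day 28. One group (alum pool) received alum alone, and the other (alum + KLH pool) also received 100 µg of keyhole limpet hemocyanin (KLH), a mollusc protein used as antigen. The deposited label calls the control naïve as well as alum alone, and the methods of the study, in which the sequenced control was injected with alum, were followed. Neurons were enriched by enzymatic digestion and a density step, and B lymphocytes were removed with beads. The methods list the C57BL/6J mice as males of 6 to 8 weeks.

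Calcium that enters a sensory neuron through channels, or leaves its internal stores, is bound by proteins that carry EF-hands, which are helix-loop-helix units whose loop holds the ion. Calmodulin acts as a sensor that changes shape on binding calcium and then switches on other enzymes, among them CaM kinase II, calcineurin and the myosin light chain kinases. Parvalbumin, calbindin-D28k and calretinin act mainly as buffers, and each marks particular classes of neurons in the nervous system. CaM kinase II is a holoenzyme of many subunits, in which a catalytic part is followed by a regulatory part that calmodulin binds, a variable linker, and an association part that joins the subunits. In pain pathways the kinase is known for its place in activity-dependent plasticity.

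Each group had 1 library, so the differences below carry no replicate error and no p-value, and none of them has a replicate check. Differences are given as log2((TPM + 1) in the alum + KLH pool / (TPM + 1) in the alum pool) and are smaller than the plain TPM ratio for low genes because of the added 1 TPM. Each was set beside the SD of this log2 ratio over all genes of a like mean level, which describes how far such genes lay apart in the same 2 libraries and is not an error between mice. TPM keeps no record of read numbers, so the depth behind each value is unknown from the files, and no interval or detection limit was computed. In a bulk library, fewer cells of a type and less RNA per cell cannot be told apart.

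The preparations carried the neuronal label in their RNA: all 10 pan-neuronal marker genes were above 3 TPM, the detection threshold of the study, in both pools. Summed over its list, the level of Schwann cell markers was 2197.1 TPM in the alum pool and 2160.0 TPM in the alum + KLH pool, and that of satellite glia markers 1994.0 and 1847.5 TPM, so glial RNA was present. Of the 12 skeletal muscle, 8 macrophage and 7 B lymphocyte markers, 0 were above 3 TPM in either pool.

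The coding sequences of Calm2 and Calm3 are shown first, because these genes encode the same protein from different bases. Over 447 coding bases the RefSeq-matched GENCODE transcripts of Calm2 and Calm3 differed at 78 positions in 76 of 149 codons, and at 0 residues. None of the 1175 distinct 31-base words of the whole Calm2 transcript, noncoding parts included, occurred in that of Calm3, so that their RNAs could be measured apart. The 36 bases that encode the first EF-hand loop (residues 21 to 32, found with the EF-hand loop pattern) are printed 5′ to 3′ on the coding strand, with the 7 differing bases in capitals.
Calm2: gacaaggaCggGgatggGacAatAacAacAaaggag
Calm3: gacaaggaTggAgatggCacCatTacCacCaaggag
The fourth loop, residues 130 to 141, also differed at 7 bases.
Calm2: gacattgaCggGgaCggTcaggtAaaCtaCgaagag
Calm3: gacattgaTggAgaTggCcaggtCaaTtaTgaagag
The same pattern found 4 loops in calmodulin, 2 in parvalbumin, 4 in calbindin and 5 in calretinin, the translated products being 149, 110, 261 and 271 residues long.

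The Camk2g and Camk2d genes each have coding exons of the linker that some transcripts hold and others skip, and these are printed because the transcripts whose levels are given further on differ by them. Capitals mark the exon and lower case the 12 transcript bases on either side, 5′ to 3′ on the coding strand, from GENCODE M21 of GRCm38. The Camk2g exons lie on the minus strand at chr14:20747819-20747851 (33 bases) and chr14:20745792-20745860 (69 bases).
Camk2g, 33-base exon: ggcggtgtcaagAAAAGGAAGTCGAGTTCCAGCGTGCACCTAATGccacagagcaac
Camk2g, 69-base exon: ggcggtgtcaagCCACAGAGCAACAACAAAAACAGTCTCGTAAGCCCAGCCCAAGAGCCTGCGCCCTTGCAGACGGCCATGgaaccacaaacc
The Camk2d exons lie on the plus strand at chr3:126805857-126805916 (60 bases) and chr3:126808208-126808249 (42 bases).
Camk2d, 60-base exon: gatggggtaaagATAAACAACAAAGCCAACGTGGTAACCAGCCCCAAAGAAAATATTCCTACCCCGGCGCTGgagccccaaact
Camk2d, 42-base exon: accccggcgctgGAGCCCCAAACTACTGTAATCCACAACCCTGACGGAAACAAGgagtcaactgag
All 4 lengths are multiples of 3, so skipping any of them keeps the reading frame. In this kinase family a short linker exon rich in lysine and arginine codons, as the 33-base exon of Camk2g is, is known to carry a nuclear localization signal.

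Every one of the 9 genes was above 3 TPM in both pools, and levels spanned a 593-fold range in the alum pool and a 614-fold range in the alum + KLH pool. Together they made up 0.825% and 0.841% of all transcripts. Calm2 was the most abundant transcript of either library. Camk2d and Calm3 followed in both pools, and Calb2 and Camk2b were the lowest in both. The order in the alum pool was Calm2, Camk2d, Calm3, Camk2g, Calb1, Camk2a, Pvalb, Calb2 and Camk2b. Calb1 and Camk2g changed places in the alum + KLH pool, at 217.57 and 217.49 TPM, and so did Pvalb and Camk2a.

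**Figure D1:**
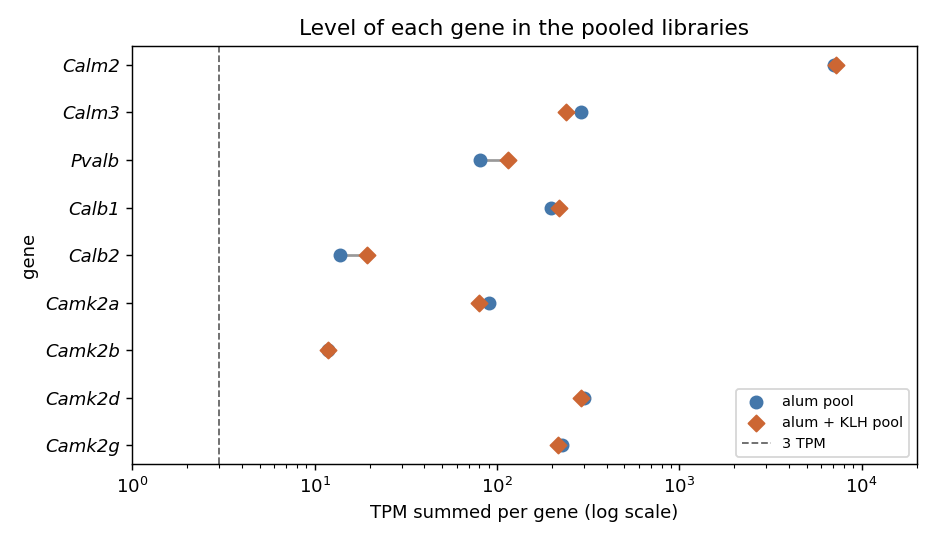
TPM summed over the transcripts of each gene (horizontal log axis) for the 9 genes, with circles for the alum pool, diamonds for the alum + KLH pool and a dashed line at 3 TPM. Calm2 stands at 7046 and 7219 TPM, the other 8 genes between 11.8 and 298.6 TPM, and the gap between the symbols is widest for Pvalb and Calb2.

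Between the pools, 0 of the 9 genes were 2-fold apart, where 1.64% of the 11648 genes that passed 3 TPM in either pool were (81 higher and 110 lower in the alum + KLH pool). Most of those genes were short RNAs, and without microRNA and small nucleolar RNA rows 27 genes were left. At 1.2-fold, 2 of the 9 genes, Pvalb and Calb2, were higher in the alum + KLH pool against 3.2% of all genes, and 1, Calm3, was lower against 8.41% of all genes. The 9 genes were chosen with earlier results of these data known, so these counts are descriptions and no test. The median log2 ratio was -0.01 over the 9 genes and -0.02 over all genes. The remaining 6 lay between -0.18 and 0.14. The share of genes 1.2-fold apart in either direction depended on level, at 9.88% for a mean of 10 to 30 TPM (Calb2, Camk2b), 5.12% for 30 to 100 TPM (Pvalb, Camk2a), 4.25% for 100 to 300 TPM (Calm3, Calb1, Camk2d, Camk2g) and 3.28% above 300 TPM (Calm2).

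**Figure D2:**
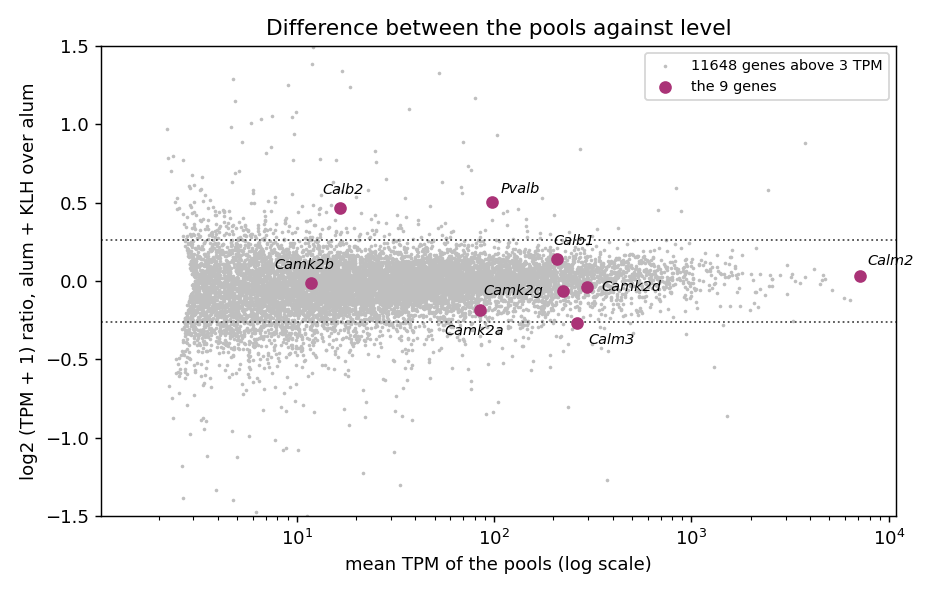
Log2 ratio of (TPM + 1), alum + KLH over alum (vertical), against the mean TPM of the pools (horizontal log axis), with 1 grey point per gene that passed 3 TPM in either pool and the 9 genes in purple. Dotted lines mark 1.2-fold, and 161 genes lie beyond the vertical axis at 1.5. Pvalb at 0.50 and Calb2 at 0.47 stand above the upper line, Calm3 at -0.26 touches the lower line and the other 6 lie between the lines.

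The gene Calm2 (NM_007589) has 6 exons on the minus strand of chromosome 17, at 87433412 to 87446935 in GRCm38, the build of all positions here. Its level was 7046 TPM in the alum pool and 7219 TPM in the alum + KLH pool. It ranked first of all 35034 transcripts and of all gene totals in both. The log2 ratio of 0.03 compared with an SD of 0.20 among genes above 300 TPM. Of its 31-base words, 23.0% also occur in annotated transcripts of other genes, most of them (11.8%) in Gm7308, which has no row in the files. How reads from such copies were assigned was not tested.

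Calm3 (NM_007590), also of 6 exons on the minus strand, lies at 16915379 to 16924114 of chromosome 7. Its level was 288.5 TPM in the alum pool and 239.9 TPM in the alum + KLH pool. It was lower by a log2 ratio of -0.26, or 1.2-fold, beside an SD of 0.14 among genes of 100 to 300 TPM. This ratio was at the edge of the 1.2-fold limit: it became -0.25, inside the limit, when the pools were rescaled by their median ratio. Of the RNA of Calm2 and Calm3 together, Calm3 supplied 3.93% in the alum pool and 3.22% in the alum + KLH pool. Calm2, which was above 0 in log2 ratio, fell below it (-0.05) relative to Hprt, and Calm3 was below 0 under each alternative tried.

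Among the buffers, Calb1 was the highest, and all 3 had higher values in the alum + KLH pool. Their summed level was 291.7 TPM in the alum pool and 351.3 TPM in the alum + KLH pool, a log2 ratio of 0.27. Calb1 made up 67.7% and 61.9% of that sum, Pvalb 27.6% and 32.5%, and Calb2 4.73% and 5.53%.

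Pvalb (NM_013645, chromosome 15, 78191117 to 78206400, minus strand, 5 exons) encodes parvalbumin, a fast-twitch muscle and interneuron buffer that in DRG marks proprioceptors and some other large myelinated neurons. It was at 80.4 TPM in the alum pool and 114.3 TPM in the alum + KLH pool. The difference of 33.9 TPM, a log2 ratio of 0.50 or 1.42-fold, was 2.89 times the SD of 0.17 among genes of 30 to 100 TPM, the widest departure among the 9 genes. Of the transcript's 31-base words, 0 occur in transcripts of other genes.

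Because parvalbumin is abundant in muscle and in large-fibre neurons, markers of both were read beside it. The 12 skeletal muscle markers summed to 1.18 TPM in the alum pool and 0.854 TPM in the alum + KLH pool. Ckm (muscle creatine kinase), Tnni2 and Tnnc2 (fast troponins) were listed at 0 in both, and the highest muscle marker, Casq1, was at 0.627 and 0.329 TPM.

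Of the 13 markers of neurofilament-rich (NF, large-fibre) neurons, 10 were above 3 TPM in both pools. At 1.2-fold, 2 of these 10 were higher in the alum + KLH pool, beside 3.2% of all genes, and 0 were lower, beside 8.41%. The marker lists were written with earlier results of these data known, so these counts are descriptions and no test. The median log2 ratio of these 10 was 0.08. Spp1, which encodes osteopontin, was at 196.1 TPM in the alum pool and 352.4 TPM in the alum + KLH pool, and Etv1, a transcription factor of proprioceptors, at 172.9 and 232.2 TPM, with log2 ratios of 0.84 and 0.42. Shox2 (0.20), Vsnl1 (0.17), Cntnap2 (0.15) and Ntrk2 (0.01) were also above 0. Ntrk2 came to -0.07 relative to Hprt and to 0.19 with its highest transcript alone. Fam19a1 (-0.02), Ntrk3, the neurotrophin-3 receptor (-0.05), Ldhb (-0.06) and Nefh, the heavy neurofilament (-0.07), were below 0. With its highest transcript alone, Ldhb came to 0.37, past 1.2-fold. Runx3, at 2.83 and 2.48 TPM, Cacna1h, at 1.86 and 1.43 TPM, and Whrn, at 0.585 and 0.572 TPM, did not reach the detection threshold. By gene totals, the markers 1.2-fold higher together with Pvalb were thus Spp1 and Etv1, and Ntrk3 and Nefh were not. Markers of other neuron classes had lower values in the alum + KLH pool: all 7 of non-peptidergic nociceptors and all 5 of TH neurons were below 0, with Gfra2 on both lists and a median log2 ratio of -0.17 for each list, beside -0.02 over all genes. Nearest to 0 were Lpar3 (-0.03) and Zfp521 (-0.01). Among them Nppb (-0.43) and Mrgprd (-0.28) were past 1.2-fold, as was the peptidergic marker Gal (-0.55). The part that the makeup of the pools has in the Pvalb value was not tested.

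Calb1 (NM_009788, chromosome 4, 15881264 to 15908064, plus strand, 11 exons) encodes calbindin-D28k. It was at 197.5 TPM in the alum pool and 217.6 TPM in the alum + KLH pool, a log2 ratio of 0.14, about as large as the SD of 0.14 among genes of like level.

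Calb2 (NM_007586, chromosome 8, 110142538 to 110168206, minus strand, 11 exons) encodes calretinin. It was at 13.8 TPM in the alum pool and 19.4 TPM in the alum + KLH pool. The log2 ratio of 0.47, or 1.38-fold, was 1.39 times the SD of 0.33 among genes of 10 to 30 TPM. In TPM the difference was 5.65, so the ratio rests on a low level. Of the buffers, the smallest ratio belonged to the most abundant of them.

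The CaM kinase II genes summed to 628.3 TPM in the alum pool and 599.3 TPM in the alum + KLH pool, a log2 ratio of -0.07, and all 4 had lower summed values in the alum + KLH pool by less than 1.2-fold. Relative to Hprt, Camk2a came to -0.27, past 1.2-fold, and after rescaling by the median ratio Camk2b came to 0.00. With only the highest transcript of each gene, Camk2g came to 0.02 and Camk2b to -0.27, past 1.2-fold. Camk2d, the delta subunit, was the leading gene with 47.5% and 48.5% of the sum. Camk2g, the gamma subunit, followed with 36.2% and 36.3%. Camk2a and Camk2b, the alpha and beta subunits that predominate in forebrain neurons, supplied 14.4% and 13.3%, and 1.89% and 1.96%. Set per transcript length, RNA of Calm2 and Calm3 was 11.7 times that of the CaM kinase II genes in the alum pool and 12.4 times in the alum + KLH pool.

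**Figure D3:**
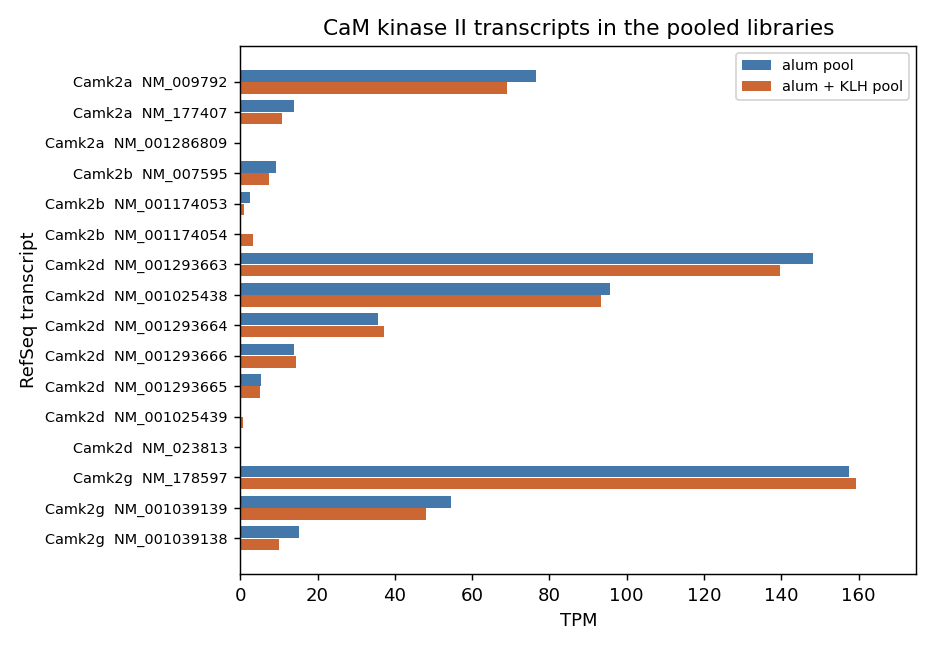
TPM (horizontal) of each of the 16 RefSeq transcripts of Camk2a, Camk2b, Camk2d and Camk2g, with blue bars for the alum pool and orange bars for the alum + KLH pool. NM_178597 of Camk2g (157.5 and 159.4 TPM) and NM_001293663 of Camk2d (148.2 and 139.8 TPM) are the highest, and most Camk2a signal is on NM_009792 (76.6 and 68.9 TPM).

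Of the 21 transcripts of the 9 genes, 16 were above 3 TPM in both pools, 1 more in the alum + KLH pool alone, and 2 were listed at 0 in both. Among the 17 above 3 TPM in at least one pool, 1 was 2-fold apart, against 4.65% of all 14215 such transcripts. Reads shared by several transcripts of a gene are apportioned among them by kallisto, so single transcripts are less certain than totals, most of all where a transcript holds few words of its own.

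Camk2d (chromosome 3, 126596951 to 126846326, plus strand) was at 298.6 TPM in the alum pool and 290.4 TPM in the alum + KLH pool over its 7 transcripts, a log2 ratio of -0.04. NM_001293663, which holds both the 60-base and the 42-base exon printed above, was at 148.2 and 139.8 TPM, or 49.6% and 48.1% of the gene. NM_001025438, which skips both, was at 95.7 and 93.4 TPM. NM_001293664, with the 42-base exon only, was at 35.7 and 37.1 TPM. NM_001293666, which skips both and has a shorter coding part of 1083 bases, was at 13.8 and 14.4 TPM. NM_001025439 was at 0 and 0.773 TPM, and NM_023813, which has 0 31-base words of its own, was listed at 0 in both.

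By summing transcripts with and without each exon, the 60-base exon of Camk2d was in 50.5% of its RNA in the alum pool and 49.2% in the alum + KLH pool, and the 42-base exon in 62.7% and 62.2%. NM_001293665 (5.27 and 5.003 TPM) was left out of these shares, since the annotation pairs it with the same structure as NM_001025438. The shares of both exons were slightly lower in the alum + KLH pool, with no error to set beside them. Words found in no other transcript of the gene made up only 0.22% of NM_001293663 and 0.64% of NM_001293664. The exon shares therefore rest on how reads were apportioned.

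Camk2g (chromosome 14, 20734875 to 20794088, minus strand) was at 227.3 TPM in the alum pool and 217.5 TPM in the alum + KLH pool, a log2 ratio of -0.06. NM_178597, which holds the 33-base and the 69-base exon, was at 157.5 and 159.4 TPM, or 69.3% and 73.3% of the gene. NM_001039139, which skips both, was at 54.5 and 48.2 TPM. NM_001039138, with the 69-base exon only, was at 15.3 and 9.94 TPM, a log2 ratio of -0.57. The 69-base exon was in 76.0% and 77.8% of Camk2g RNA, and the 33-base exon only in NM_178597. As apportioned, the lower total in the alum + KLH pool lay in the transcripts without the 33-base exon. Words found in no other transcript of the gene made up only 2.70% of NM_178597, 0.82% of NM_001039139 and 0.81% of NM_001039138. The split between these transcripts is therefore uncertain.

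Camk2b (chromosome 11, 5969644 to 6065748, minus strand) was at 11.9 TPM in the alum pool and 11.8 TPM in the alum + KLH pool, a log2 ratio of -0.01, the smallest of the 9 in size. As apportioned, its transcripts did not keep their levels. NM_007595 was at 9.23 and 7.45 TPM and NM_001174053 at 2.66 and 0.883 TPM. NM_001174054 was at 0.00016 TPM in the alum pool and 3.43 TPM in the alum + KLH pool, and it was the transcript that passed 2-fold. The words found in no other transcript of the gene made up only 3.28% of NM_007595, 5.26% of NM_001174053 and 4.88% of NM_001174054. NM_001174053 and NM_001174054 also lay near or below 3 TPM, so the split between the Camk2b transcripts is uncertain.

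Camk2a (chromosome 18, 60925618 to 60988152, plus strand) was at 90.5 TPM in the alum pool and 79.6 TPM in the alum + KLH pool, a log2 ratio of -0.18 beside an SD of 0.17. Most of this sum was not on the transcript of the full kinase. NM_177407, with 18 exons and 478 encoded residues, was at 13.9 and 10.7 TPM, or 15.4% and 13.5% of the gene. NM_009792 was at 76.6 and 68.9 TPM, or 84.6% and 86.5%.

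NM_009792 starts 37.9 kb into the gene, after 12 of the 18 exons of NM_177407. It encodes 200 residues, of which the last 150 are those of the kinase, and 5 of its 7 coding exons are shared with NM_177407. A product of this kind, known as alpha-KAP, holds the association part without the catalytic part and was described as an anchor for the kinase in skeletal muscle. The summed level of the muscle markers was 1.18 TPM in the alum pool and 0.854 TPM in the alum + KLH pool. Of the 31-base words of NM_009792, 11.4% occur in no other Camk2a transcript of the files, and 71.9% of those of NM_177407 do not. The similar NM_001286809 has 0% of its own and was listed at 0 in both pools.

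**Figure D4:**
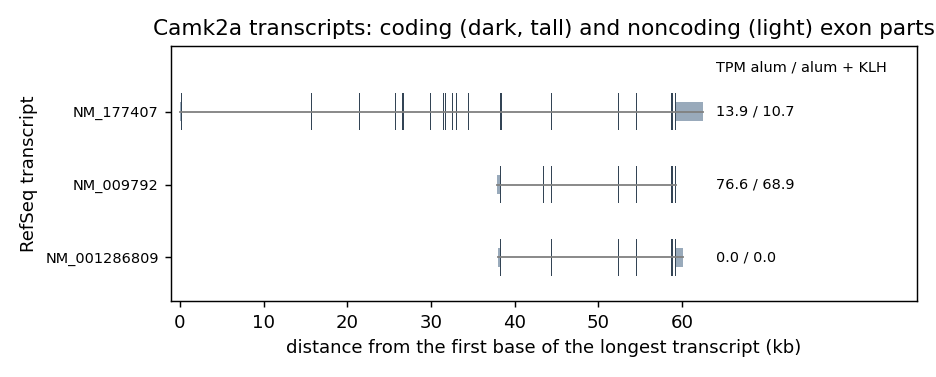
Exons of the 3 Camk2a transcripts against distance from the first base of the longest transcript in kb, with coding parts dark and tall, noncoding parts light, and TPM in the alum and alum + KLH pools at the right. NM_009792, at 76.6 and 68.9 TPM, starts 37.9 kb into the gene and lacks the first 12 exons of NM_177407, at 13.9 and 10.7 TPM.

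The Camk2a values bear on the make-up of the family. Counting only the full-length transcript, Camk2a was at a log2 ratio of -0.35 and supplied 2.52% of CaM kinase II RNA in the alum pool and 2.02% in the alum + KLH pool. Camk2d and Camk2g then supplied 54.1% and 41.2% in the alum pool. The level of NM_009792 depends on the length assigned to it, 979 bases in the matched GENCODE transcript, and the length used by the authors is not given in the sources used here.

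Among other genes of the same pathway, CaM kinase II inhibitors were lower than the summed kinase genes. Camk2n1 was at 52.4 TPM in the alum pool and 47.4 TPM in the alum + KLH pool, and Camk2n2 at 25.6 and 19.7 TPM, with log2 ratios of -0.14 and -0.36. Of the other calmodulin family genes, Calml4 was at 61.6 and 51.7 TPM, a log2 ratio of -0.25. Calml3 was at 0.188 and 0.121 TPM, and Calm4 and Calm5 were listed at 0.

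Of 34 further EF-hand sensor and buffer genes, 28 were above 3 TPM in both pools. Of the 29 that passed 3 TPM in either pool, 0 were 1.2-fold higher in the alum + KLH pool, beside 3.2% of all genes. Another 2 were lower, beside 8.41% of all genes, and the median log2 ratio of the 29 was -0.08. The highest were S100a10, a partner of annexin A2, at 1136 and 1008 TPM, Kcnip4, a subunit of A-type potassium channels, at 751.4 and 730.6 TPM, and S100b, a glial and neuronal EF-hand protein, at 683.5 and 711.5 TPM. Hpcal1, a visinin-like sensor, was at 79.1 and 60.98 TPM, a log2 ratio of -0.37. Hpca, which encodes hippocalcin and was named after its values were seen, was at 10.9 and 7.96 TPM. Below 3 TPM, S100g, also named after its values were seen, was at 0.176 and 1.85 TPM.

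The other calmodulin-dependent kinases summed to 238.4 TPM in the alum pool and 225.5 TPM in the alum + KLH pool, less than the CaM kinase II genes together. Of 16 genes, 10 were above 3 TPM in both pools, 0 of these 10 were 1.2-fold apart, and their median log2 ratio was -0.07. Camk1d was the highest at 64.5 and 61.2 TPM, followed by Dapk1 at 34.0 and 32.7 TPM and Camk1 at 29.8 and 28.1 TPM. Camk2d and Camk2g were each above all of them, while Camk2b, at 11.9 and 11.8 TPM, was below the 3 named here.

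Calcineurin, the phosphatase that calmodulin activates, was more abundant. Its catalytic subunit gene Ppp3ca was at 973.9 and 966.9 TPM, its regulatory subunit gene Ppp3r1 at 950.3 and 984.7 TPM and the regulator Rcan2 at 691.3 and 686.3 TPM. Of 14 genes on that list, 10 were above 3 TPM in both pools, 0 of these 10 were 1.2-fold apart, and their median log2 ratio was -0.01.

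Of 30 neuronal proteins that bind calmodulin or serve the kinase, 25 were above 3 TPM in both pools. Of the 26 that passed 3 TPM in either pool, 0 were 1.2-fold higher in the alum + KLH pool, beside 3.2% of all genes. Another 2 were lower, beside 8.41% of all genes, and the median log2 ratio of the 26 was -0.04. Pcp4, which modulates calcium exchange on calmodulin, was the highest at 1774 and 1722 TPM, followed by Gap43, a growth cone protein, at 456.5 and 441.9 TPM and Sptan1, a spectrin, at 380.2 and 355.5 TPM. Marcksl1 was at 43.2 and 32.5 TPM, a log2 ratio of -0.40. Camta2, named after its values were seen, was at 4.14 and 3.15 TPM.

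**Figure D5:**
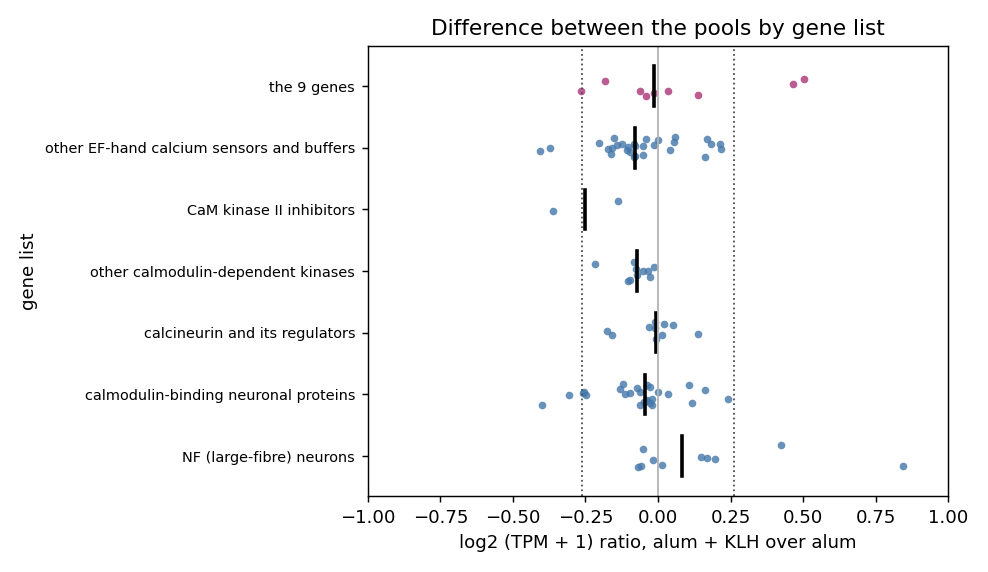
Log2 ratio of (TPM + 1), alum + KLH over alum (horizontal), for each gene that passed 3 TPM in either pool, by gene list (vertical), with a black bar at the median of each list and dotted lines at 1.2-fold. Pvalb and Calb2 are the points to the right among the 9 genes, and only the NF list holds further points beyond the right line, Etv1 at 0.42 and Spp1 at 0.84.

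The listed genes closest to each of the 9 in level were found by the distance between their log2(TPM + 1) values, over 207 other genes of the lists and the 2 libraries. Camk2d was closest to Glul and Syn1 (distances of 0.02 each), Camk2a to Kcnip3 (0.02) and Ppp3cc (0.14), and Calm3 to P2rx3 (0.08) and Pcp4l1 (0.09). Calb1 was closest to Camta1 (0.12) and Ncald (0.14), Camk2g to Ncald (0.12) and Cetn3 (0.13), and Camk2b to Nfatc2 (0.10) and Eef2k (0.11). Pvalb had no gene closer than S100a13 (0.21), and Ntrk2 (0.35) came next. Calb2 was closest to Zfp521 (0.34) and Dapk2 (0.35), and Calm2 to Calca (0.38) and Nefl (0.67). Calm2, Calb2 and Pvalb thus stood farthest from the listed genes.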

How the data were processed

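RNA from DRG neurons was measured in 2 libraries, 1 per group, each from 10 pooled mice. Per the labels and the methods of the study, the authors made stranded mRNA libraries, trimmed paired-end reads with cutadapt and quantified them with kallisto on the annotated mm10 transcriptome. Tool versions are not given in the sources used here. The files deposited list TPM for each RefSeq transcript, scaled by the authors to 1000000 per library. The methods of the study give a minimum read depth per sample. The deposited values include no counts, so the reads behind each value and their counting error are unknown.

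TPM was summed over rows with the same symbol. A pseudocount of 1 TPM, a threshold of 3 TPM and limits of 2-fold and 1.2-fold were used. With 1 library per group no test was run. SDs came from genes of the same level class (3 to 10, 10 to 30, 30 to 100, 100 to 300 and above 300 TPM).

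Positions, exons and sequences came from GENCODE M21 of GRCm38, the assembly of mm10, through its RefSeq table, which matched all 21 transcripts. Words of 31 bases were compared with all GENCODE transcripts in either orientation.

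The 9 genes and all lists were chosen with earlier results of these data known. The genes named are the 9 with all their transcripts, the 3 highest of each pathway list with those at least 1.2-fold apart at a mean of 10 TPM or more, every gene of lists of 5 or fewer, the 2 highest of each marker list, and all NF and muscle markers. Alternatives were pseudocounts of 0.1 and 0.5 TPM, thresholds of 1 and 10 TPM, no filter, rescaling by the median ratio, TPM relative to Hprt, the highest transcript of each gene, and a table without microRNAs and small nucleolar RNAs. Leaving out the short Camk2a transcripts was added after seeing the data. Calculations used Python 3.11.15, numpy 2.4.6 and pandas 2.3.3, and plots matplotlib 3.10.9. Gene sums, log2 ratios and the 2-fold limit were tested on simulated data. The 1.2-fold limit, the SDs, the exon shares and the word comparisons were not. Some genes that this rule names are not reported here.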

Additional observations from a re-analysis of the deposited data

How the results depend on the processing

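The count of 9 genes above 3 TPM was the same at 1 and 10 TPM and with the highest transcript of each gene, and 0 were 2-fold apart under each of the 6 alternatives tried for that count. The count at 1.2-fold, 3, lay between 2 and 4. Calm3 fell inside the limit after rescaling by the median ratio and without microRNA and small nucleolar RNA rows. Pvalb and Calb2 stayed past it under all of them, with log2 ratios of 0.42 to 0.52 and 0.39 to 0.49. Each of these 2 genes has 1 transcript, so the highest-transcript alternative could not change them. Rescaling by the median ratio or Hprt multiplies all values of the alum + KLH pool by a single factor. The sign was less firm for Calm2 (-0.05 to 0.05), Camk2b (-0.27 to 0.00) and Camk2g (-0.15 to 0.02). Over all genes, the count at 2-fold (191) became 27 without microRNA and small nucleolar RNA rows and 74 above 10 TPM, and the count at 1.2-fold (1353) became 2454 with no filter and 634 above 10 TPM. Relative to Hprt, 237 genes were higher and 1726 lower at 1.2-fold, against 373 and 980.

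With the highest transcript of each gene, the shares of CaM kinase II RNA in the alum pool became 19.6% for Camk2a, 2.36% for Camk2b, 37.8% for Camk2d and 40.2% for Camk2g, and in the alum + KLH pool 18.4% for Camk2a, 37.2% for Camk2d and 42.4% for Camk2g, so that Camk2g came before Camk2d. Without the short Camk2a transcripts, chosen after seeing the data, they were 2.52%, 2.15%, 54.1% and 41.2% in the alum pool and 2.02%, 2.22%, 54.8% and 41.0% in the alum + KLH pool. The lack of read counts limits all values, those of low transcripts most. No paired analysis was possible because each group has 1 library, and for the same reason no replicate could be left out.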

Other observations

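Markers of other cells and neuron classes gave these values in the alum and the alum + KLH pool. Peptidergic nociceptor markers were above 3 TPM for 6 of 6 genes, led by Calca at 6177 and 5729 TPM and Tac1 at 1090 and 1097 TPM. Non-peptidergic nociceptor markers were above it for 7 of 7, led by P2rx3 at 285.7 and 253.8 TPM and Plxnc1 at 272.5 and 249.1 TPM. Those of TH neurons were above it for 5 of 5, with Piezo2 at 203.8 and 185.9 TPM and Gfra2 at 99.7 and 88.3 TPM. The highest pan-neuronal genes were Nefl at 5259 and 5048 TPM and Snap25 at 4057 and 4279 TPM.

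Among glial genes, Pmp22 at 1062 and 1021 TPM and S100b led the Schwann cell list, and Fabp7 at 952.6 and 888.1 TPM the satellite glia list. Endothelial markers were led by Egfl7 at 5.13 and 5.10 TPM and Cdh5 at 3.79 and 3.15 TPM, fibroblast markers by Dcn at 63.8 and 62.6 TPM and Lum at 11.2 and 13.2 TPM, and macrophage markers by Cx3cr1 at 2.08 and 1.66 TPM and Mrc1 at 1.29 and 1.35 TPM. Of the 11 spinal cord markers 2 were above 3 TPM, Slc17a6 at 465.0 and 488.2 TPM, which sensory neurons also express, and Aqp4 at 14.8 and 14.9 TPM. B lymphocyte markers were highest for Cr2 at 1.79 and 1.58 TPM and Cd22 at 0.792 and 0.764 TPM. The remaining muscle markers, Acta1, Myh1, Myh2, Myh4, Tnnt3, Mylpf, Atp2a1 and Mb, were each below Casq1 in both pools.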
